A study of Mus musculus with 4 samples.

Results

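The sites described here are single CCGG positions of the mouse autosomes that stand alone, lie away from CpG-island-like clusters, and were nonetheless cut often by HpaII. A site belonged to the set if it had no other CCGG within 500 bp and no dense site within 10000 bp, a dense site being one with 10 or more CCGG within 500 bp. It also needed 10 or more MspI tags in both MspI libraries together and a pooled HpaII/MspI ratio of 2 or more. The pooled ratio is the sum of both HpaII values divided by the sum of both MspI values, each scaled to its library's total. Of 1594137 CCGG positions in the files, 1518164 were autosomal, 567596 of those were isolated, 522755 of the isolated ones also lay more than 10000 bp from any dense site, and 230306 of these had enough MspI tags. These 230306 are called eligible sites, and 13849 of them, 6.01% (95% exact binomial interval 5.92 to 6.11), reached the ratio and are called members.

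The cells were MC1-ZE7 mouse embryonic stem cells (strain MC1, 129S6/SvEvTac, passage 31) that carry the fluorescent protein Emerald under the promoter of Zscan4c. They were grown without feeder cells in serum with LIF and sorted by Emerald fluorescence into an Emerald-high and an Emerald-negative fraction, so the groups differ by reporter signal within 1 line and not by genotype or treatment. Genomic DNA of each fraction was digested with HpaII or with MspI and sequenced by HELP tagging, which yields a short tag beside each cut. There was 1 library for each of the 4 combinations, with 5662614 tags for Emerald-high HpaII and 9307616 to 9535691 for the other 3, and no value below has a replicate check.

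DNA methylation in mammals falls mainly on the C of CpG pairs. HpaII cuts CCGG only when the central CpG is unmethylated, whereas MspI cuts it either way, so a high HpaII/MspI ratio marks a site that is often unmethylated. Each library is scaled to its own total, so the ratio ranks sites and is not the unmethylated share of the DNA. Unmethylated CpGs are typical of CpG islands, while CpG-poor sequence is mostly methylated, apart from local dips that are known at regulatory elements such as enhancers. Zscan4 is a gene family of the 2-cell embryo that switches on transiently in scattered embryonic stem cells.

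High cutting was uncommon among isolated sites. The median pooled ratio of eligible sites was 0.329 (quartiles 0.138 and 0.713), and 40.6% of them had a ratio under 0.25. A further 3.47% lay between 1.5 and 2, just short of membership. Members were spread thinly above the limit: 7204 had a ratio of 2 to 3, 4946 a ratio of 3 to 5, and 1699 a ratio of 5 or more. Their median was 2.95 and their highest value 16.6. The distribution was continuous through the limit, and the members are its upper tail. With few tags per site, counting error could blur separate classes, so this shape cannot tell whether members form one. These ratios chose the members and are given as a description. For comparison, 92.2% of the 23320 autosomal dense sites with 10 or more MspI tags had a ratio of 2 or more, and so did 13.3% of the 19097 isolated sites within 10000 bp of a dense site.

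**Figure D1:**
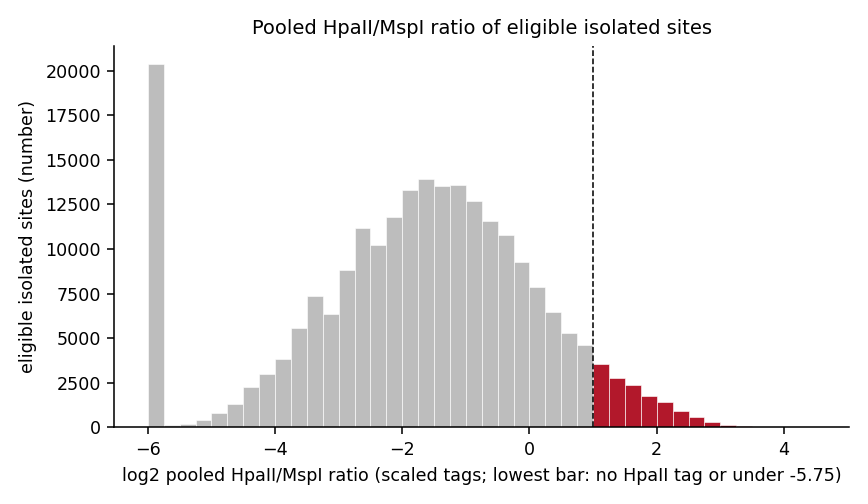
Number of eligible isolated sites (vertical axis) by log2 pooled HpaII/MspI ratio (horizontal axis, scaled tags) in steps of 0.25. The dashed line is the ratio of 2; the 13849 members, in red, form the right-hand tail of one continuous distribution, and the lowest bar gathers sites with no HpaII tag.

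Each member rested on few tags. The median member had 17 HpaII and 8 MspI tags in Emerald-high cells and 28 HpaII and 9 MspI tags in Emerald-negative cells. Only 3671 members (26.5%) had 10 or more tags in each MspI library. Just inside the limit, the site on chromosome 1 at 158474175 had 16 HpaII and 13 MspI tags (Emerald-high) beside 20 and 10 (Emerald-negative). Just outside it, the site on chromosome 5 at 78819418 had 8 and 8 tags (Emerald-high) beside 11 and 4 (Emerald-negative). The other neighbours of the limit were chromosome 7 at 82113460, a member with 5 and 5, then 12 and 5 tags, and chromosome 13 at 27808575, a non-member with 10.5 and 8, then 16 and 8.5 tags, in the same order. A gain or loss of 1 tag would move any of these sites across the limit.

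The share of members was 7.84% of sites with 10 to 14 MspI tags and lower in each deeper class down to 3.56% (3.15 to 4.01) of those with 50 to 99. Among the 352 sites with 100 or more MspI tags it was 9.38% (6.54 to 12.9). The part of low MspI counts in membership was not tested.

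The files divide the tags of each site into 2 parts, and the part not used to choose a site gives a measure independent of the choice. When sites holding 5 or more MspI tags per part were chosen by a ratio of 2 or more in part 1, 49.3% of 5206 sites also reached 2 in part 2 (95% interval 48.0 to 50.7). Chosen on part 2, 49.8% of 5152 sites reached 2 in part 1. Among all 80888 such sites, 6.37% and 6.44% did so, and among those not chosen 3.41% and 3.48%. Recurrence was thus far above the level of the other isolated sites, but about 1 chosen site in 2 did not reach the limit again. The median ratio of the chosen sites was 3.00 in the part that chose them and 1.97 in the other part, and 75.9% had a ratio of 1 or more there. Sites chosen on part 1 with a ratio of 5 or more recurred in 71.7% of cases, and those with a ratio of 2 to 3 in 36.3%. The parts come from the same digests and libraries, so recurrence says nothing about other cultures.

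Many sites offered tags from 1 part only. In 2258 members (16.3%), 1 part was empty in all 4 libraries. All HpaII tags lay in 1 part in 20.03% of members, and all MspI tags in 29.4%. Fractions of a tag, which may mark tags shared among positions, occurred at close rates in members and eligible sites. They were found at 509 members, 3.68% (3.37 to 4.002), and at 3.54% of eligible sites (3.46 to 3.61). At 261 members the 4 values were identical to those of another member with fractional tags, so these positions are not independent measurements.

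Among the 379 members with whole tags and 20 or more tags in both of the MspI libraries, the 8 with the highest pooled ratio are named. The first lay on chromosome 11 at 3081958, with 317 HpaII against 81 MspI tags for Emerald-high and 788 against 67 for Emerald-negative cells. Its pooled ratio was 8.75, and HpaII exceeded MspI in both fractions. The second, on chromosome 14 at 54182516, had 168 HpaII and 59 MspI tags (Emerald-high) beside 309 and 23 (Emerald-negative), a pooled ratio of 7.08. Its MspI libraries differed by 1.31 on the log2 scale, more than its HpaII libraries, which differed by -0.13. The third, on chromosome 6 at 72115062, had 128 HpaII and 37 MspI tags (Emerald-high) beside 175 and 23 (Emerald-negative), a pooled ratio of 6.38. Next came chromosome 12 at 26756814 and chromosome 15 at 6853621, with pooled ratios of 6.30 and 6.08. The other 3 were on chromosome 18 at 75150900 (6.06), chromosome 3 at 95479056 (6.02) and chromosome 7 at 25636259 (5.68). In each of the 8, both HpaII libraries stood above both MspI libraries after scaling. They lay 15364 to 372855 bp from the nearest dense site and had 7 to 16 CCGG within 5000 bp.

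**Figure D2:**
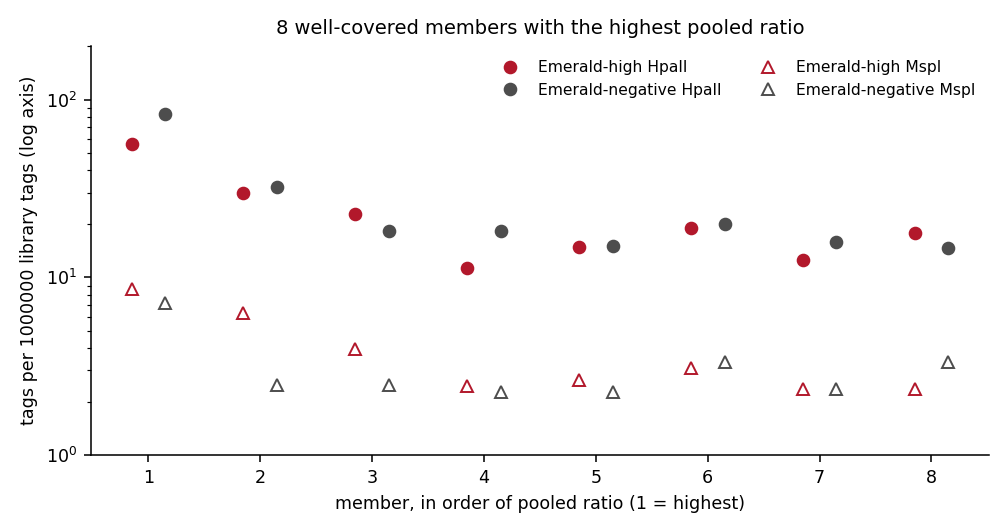
Tags per 1000000 library tags (vertical log axis) at the 8 named members in order of pooled ratio, filled circles for HpaII and open triangles for MspI, red for Emerald-high and grey for Emerald-negative cells; each point is 1 library. Every HpaII point lies above every MspI point of the same site, and the MspI points of the second site are the farthest apart.

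A few members held very many tags. The most heavily tagged lay on chromosome 1 at 24621015, with 4231 HpaII and 1714.5 MspI tags in Emerald-high cells and 8442 HpaII and 1488.5 MspI tags in Emerald-negative cells. Its pooled ratio was 4.76, and its MspI tags stood against medians of 8 and 9 for members in the 2 fractions. Its MspI values hold fractions of a tag, so some of its tags may be shared with other positions. Next came chromosome 4 at 78419872, with 884 and 585 tags (Emerald-high) beside 1553 and 558 (Emerald-negative), a ratio of 2.61. The third was the chromosome 11 site named above.

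Sites near members were also cut more often, which is independent of the ratio that chose the members. CCGG sites more than 500 and up to 1000 bp from a member, with other members and dense sites left out, had a summed HpaII/MspI ratio of 1.78 (95% counting interval 1.77 to 1.80; 10297 sites). The level depends on the scaling: with libraries scaled to dense sites and the members chosen anew, it was 0.437. Around the other eligible sites the ratio to library totals was 0.701 (0.699 to 0.704; 108317 sites). The ratio around members was 1.49 at 1000 to 2000 bp, 1.12 at 2000 to 5000 bp and 1.06 at 5000 to 10000 bp, and around the other eligible sites it was 0.616, 0.692 and 0.741. These sums weight sites by tags, and 1 other eligible site held 667442 pooled MspI tags, whose effect was not tested. Median ratios of neighbours with 10 or more MspI tags were 0.841, 0.607, 0.455 and 0.432 around members, from the nearest class outward. Around other eligible sites they were 0.306, 0.305, 0.306 and 0.314. The excess around members was therefore largest within 2000 bp and smaller, though still beyond counting error, from 20000 to 50000 bp (1.04 against 0.832). Of the neighbours at 500 to 1000 bp with 10 or more MspI tags, 31.01% (29.7 to 32.4) had a ratio of 2 or more around members and 5.79% around other eligible sites.

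Members lay in slightly richer surroundings, with a median of 7 CCGG within 5000 bp against 5 for other eligible sites, so their neighbours differ in spacing as well. Restricting the neighbours to eligible sites, which all meet the same spacing rule, kept the contrast. At 500 to 1000 bp, 23.3% (21.4 to 25.2) of 1951 eligible neighbours of members were members, against 6.26% (5.95 to 6.58) of 23337 eligible neighbours of other eligible sites. The share around members was 14.7% at 1000 to 2000 bp, 10.4% at 2000 to 5000 bp and 7.62% at 20000 to 50000 bp. At 500000 to 1000000 bp the neighbours of members took in 227103 of the 230306 eligible sites. The share of 6.02% there had to lie near the overall 6.01% and says nothing about distance. For central sites with 4 to 6 CCGG within 5000 bp, the shares at 500 to 1000 bp were 17.6% (14.5 to 20.9) and 5.59% (5.10 to 6.10).

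**Figure D3:**
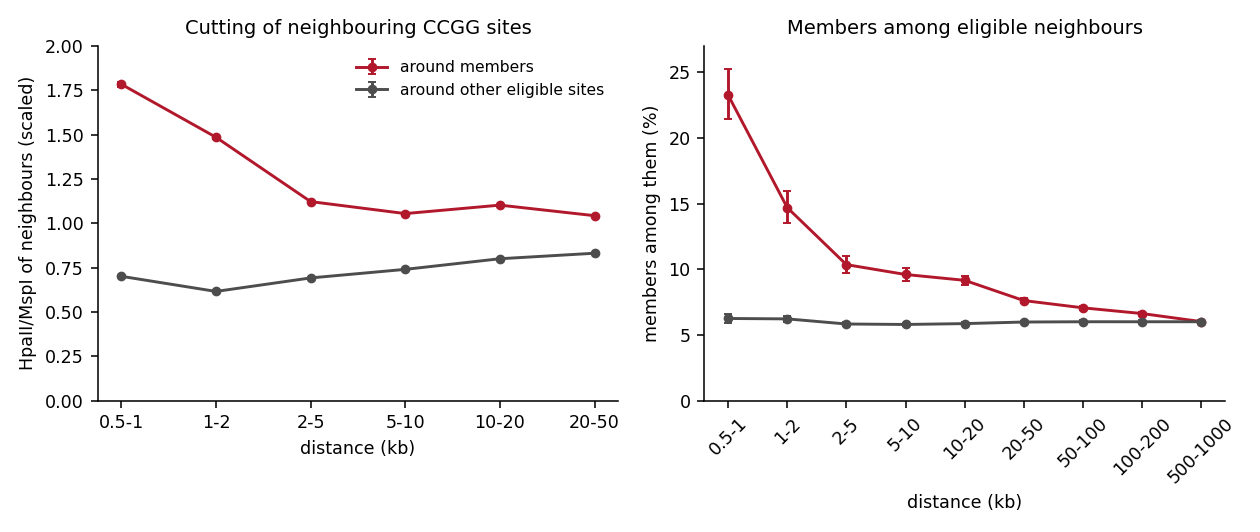
Left, summed scaled HpaII/MspI ratio of CCGG sites by distance (kb) from members (red) and from other eligible sites (grey), members and dense sites left out; right, percent of eligible neighbours that are members. Bars are 95% counting intervals. Both red curves start high at 0.5 to 1 kb (1.78 and 23.3%). The right-hand curves meet at 500 to 1000 kb, where both sets of neighbours hold nearly all eligible sites.

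High cutting of neighbours was not universal. Of 8292 members whose CCGG neighbours at 500 to 2000 bp held 10 or more MspI tags in sum, 28.7% had neighbours with a ratio of 2 or more, but 17.9% had neighbours with a ratio under 0.25. Among other eligible sites these shares were 8.38% and 33.4%. Members were thus found both beside highly cut neighbours and beside rarely cut ones. Whether members beside rarely cut neighbours recur in the other part of the tags was not tested.

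Membership increased with local CCGG number and nearness to dense sites. Of eligible sites with no other CCGG within 5000 bp, 5.26% were members (4.83 to 5.72). The share was 4.86% (4.67 to 5.05) at 2 to 3 CCGG, the site included, against 8.89% (8.54 to 9.25) at 11 to 15 and 13.6% (12.9 to 14.5) at 16 or more. With at least 20 MspI tags required, the shares were 3.997% at 1 to 3 CCGG and 11.2% at 16 or more, so the order did not rest on the shallowest sites. By distance to the nearest dense site, 8.18% were members at 10000 to 20000 bp and 4.89% (4.70 to 5.09) at 200000 to 500000 bp. Beyond 500000 bp the share was 5.78% (5.39 to 6.195), above that of the preceding class. The median member lay 80589 bp from the nearest dense site, and the median of the other eligible sites was 100348 bp.

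**Figure D4:**
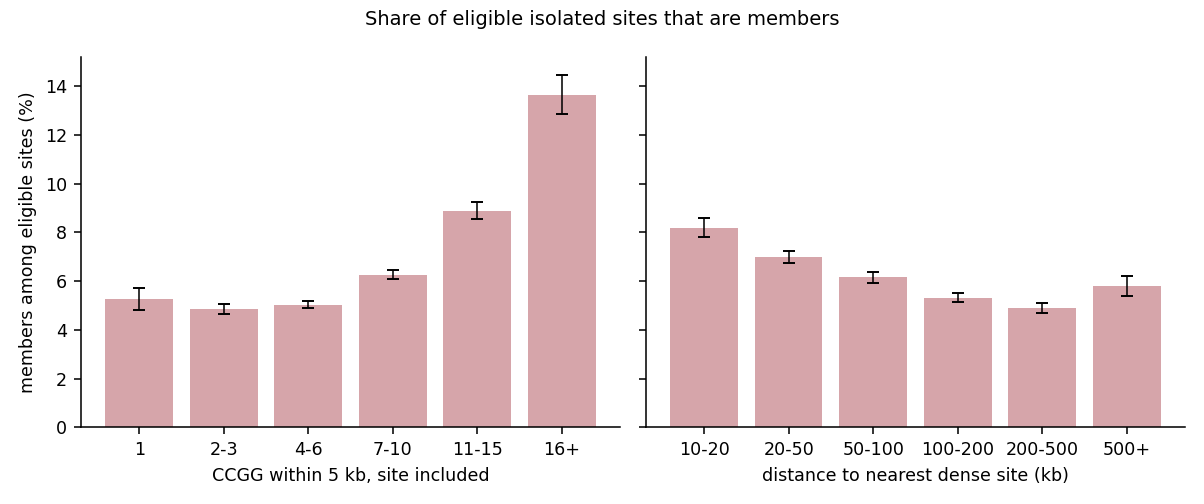
Percent of eligible isolated sites that are members (bars, with 95% exact binomial intervals) by number of CCGG within 5 kb (left) and by distance to the nearest dense site in kb (right). The share reaches 13.6% in the richest surroundings on the left, and on the right it is lowest, 4.89%, at 200000 to 500000 bp from a dense site.

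Members were found on each autosome at similar rates, from 5.28% of eligible sites on chromosome 18 to 6.89% on chromosome 11, with a mean of 6.03% ± 0.48 (SD over 19 autosomes of the same libraries). At a finer scale the shares ranged more widely, but a window holds far fewer eligible sites than an autosome. The part of counting error in this wider range was not tested. Among 2213 windows of 1000000 bp with at least 50 eligible sites, the median share was 5.38% (quartiles 3.41 and 7.87), 43 windows held no member, and the highest share was 32.5%, 26 of 80 sites, on chromosome 18 from 37000001 to 38000000. The next windows were chromosome 16 from 66000001 (29.5%, 18 of 61) and chromosome 13 from 23000001 (26.7%, 23 of 86). These windows were named after their values were seen.

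Joined across gaps of at most 50000 bp, the members formed 9056 runs, of which 6355 were single members and 250 held 5 or more. The largest run, 16 members of 30 eligible sites, covered 23475390 to 23722814 on chromosome 13, inside the third window above. Its members had pooled ratios of 2.33 to 7.12, and the other CCGG sites of the run that were not dense had a summed ratio of 3.56 (3.40 to 3.72), against 4.17 (Emerald-high) and 4.36 (Emerald-negative) at its members. Summed over the run, members held 424 HpaII and 168 MspI tags (Emerald-high) beside 837 and 188 (Emerald-negative). A run of 14 members among 50 eligible sites lay on chromosome 10 at 94506944 to 94779561, where the other sites had a ratio of 1.19 (1.13 to 1.25). Another 14 among 53 lay on chromosome 8 at 109911827 to 110124804, where the other sites stood at 1.05 (0.9993 to 1.10). The summed ratio of the other sites was thus high in the chromosome 13 run and lower in the chromosome 10 and chromosome 8 runs. Not all eligible sites of these runs were members. A ratio under 2 at the rest follows from the definition of membership and is not a separate result.

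Between the Emerald fractions, members as a group were cut almost equally relative to MspI and to library totals. Summed over members, HpaII/MspI reached 3.36 among Emerald-high cells, against 3.31 among Emerald-negative ones, a log2 difference of 0.0224 (95% Poisson interval 0.00977 to 0.0349, counting error only). They held 282754 Emerald-high HpaII, 481714 Emerald-negative HpaII, 139340 Emerald-high MspI and 142175 Emerald-negative MspI tags, which is 4.99%, 5.05%, 1.49% and 1.53% of the libraries. The HpaII libraries alone differed by -0.0168 (-0.0235 to -0.0101) and the MspI libraries by -0.0391 (-0.0498 to -0.0285). The small positive value thus came from fewer Emerald-high MspI tags and not from more HpaII tags.

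The other eligible sites differed by 0.73 (0.720 to 0.730), and members minus these sites gave -0.70 (-0.716 to -0.689). Of the 2710782 Emerald-high and 2876594 Emerald-negative MspI tags summed at the other eligible sites, 346952 and 320490 lay at 1 site. The intervals do not cover the effect of that site, which was not tested. As a median over the other eligible sites, the difference was 0.634. Dense sites, 21500 with the same ratio limit and minimum of MspI tags, had a median pooled ratio of 4.04, against 2.95 at members. Cutting was thus not equal in these sets. Between the fractions these dense sites differed by -0.63 (-0.637 to -0.617), and members minus dense sites gave 0.65 (0.633 to 0.666). The value followed the pooled ratio in steps and not as a break at the limit: eligible sites with a ratio under 0.25 stood at 1.09, those at 0.5 to 1 at 0.73 and those at 1 to 2 at 0.39 (0.380 to 0.402). Among members it was 0.16 (0.138 to 0.174) at a ratio of 2 to 3, -0.0298 (-0.0503 to -0.00932) at 3 to 5 and -0.17 (-0.206 to -0.133) at 5 or more. The near-zero value of all members thus joins classes of opposite sign, and since the ratio defines these classes they are a description. From the 2533 highly cut isolated sites within 10000 bp of a dense site, the members differed by -0.0264 (-0.0589 to 0.00607), an interval that holds 0. All values are relative to library totals. Scaled to dense-site tags, the same sites stood at 0.74 (members), 1.45 (other eligible sites) and 0.0934 (highly cut dense sites), a constant shift that keeps the order of the 3 groups but turns the sign at dense sites. The near-zero value of the members therefore holds relative to library totals only.

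The near-zero value of the members depends on how they are chosen. Taken by the Emerald-negative libraries alone, 4892 sites differed by -0.0614 (-0.0787 to -0.0442), and taken by the Emerald-high libraries alone, 6118 sites differed by 0.19 (0.174 to 0.205). Chosen on 1 part of the tags and read on the other, the difference was 0.0654 (0.0412 to 0.0897) or 0.0710 (0.0469 to 0.0952). With a ratio of 3 or more it was -0.0685 (-0.0862 to -0.0507). Relative to library totals, its size is therefore known only as small against that of the other eligible sites, and its sign is not settled.

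By autosome, the difference at members was 0.0256 ± 0.0372 (mean ± SD over 19 autosomes), from -0.0562 on chromosome 1 to 0.0845 on chromosome 10. It was above 0 on 14 of 19, and 14 of 19 counting intervals held 0. Chromosome 1 carries the most tagged member, and without that site the genome-wide value was 0.0288. At the other eligible sites it was 0.74 ± 0.0298 and exceeded that of the members on 19 of 19 autosomes.

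**Figure D5:**
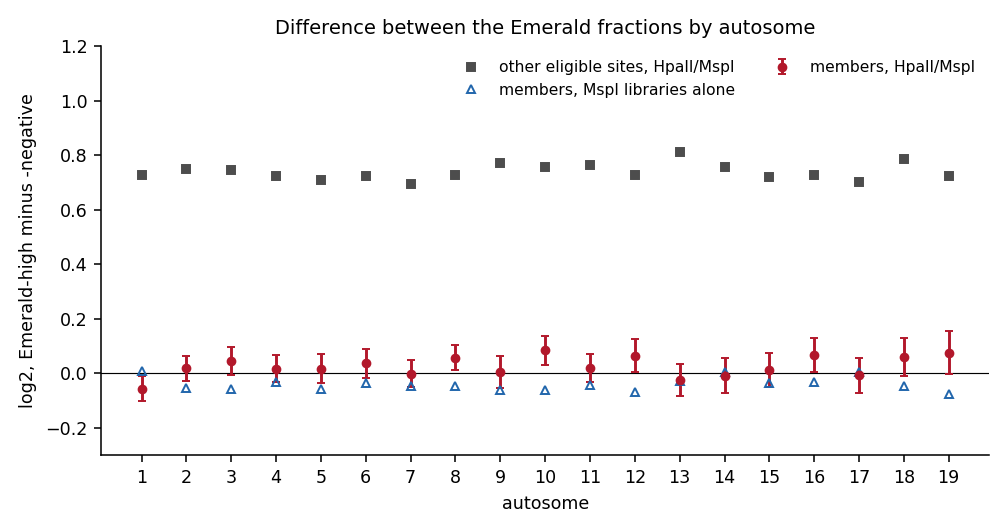
Log2 HpaII/MspI difference, Emerald-high minus Emerald-negative (vertical axis), by autosome for members (red circles, with 95% Poisson intervals) and other eligible sites (grey squares), with the MspI libraries alone at members (blue triangles). Members lie between -0.0562 and 0.0845 and the other eligible sites between 0.69 and 0.81.

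The fraction difference at members varied slightly between classes of surroundings. Members whose neighbours at 500 to 2000 bp had a ratio under 0.25 stood at 0.12 (0.0826 to 0.161; 1486 sites, with the MspI libraries at -0.0670). Those whose neighbours had a ratio of 2 or more stood at -0.0203 (-0.0512 to 0.0105; 2381 sites, MspI -0.0807). In the HpaII libraries alone these values were 0.0549 (0.0339 to 0.0758) and -0.10 (-0.117 to -0.0852). The 3 classes between them lay from 0.0184 to 0.0355, with intervals that hold 0. The classes also differed in the members' own pooled ratio. Its median was 2.93 with neighbours under 0.25 and 3.32 with neighbours at 2 or more. The part of the pooled ratio in this contrast was not tested. The sites 500 to 1000 bp from members themselves differed by -0.11 (-0.135 to -0.0913), and those around other eligible sites by 0.31 (0.302 to 0.319). By distance, members 10000 to 50000 bp from a dense site lay at about -0.02 in both classes, with intervals that hold 0, and those at 100000 to 200000 bp at 0.0619 (0.0338 to 0.0901).

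Single members varied widely around the group value. The per-site log2 difference, with a pseudocount of 1 tag, had a median of 0.0521, quartiles of -0.54 and 0.64, and an SD of 0.93, and 52.4% of members were above 0, against 70.3% of other eligible sites. The MspI libraries alone gave an SD of 0.73 per site. A ratio of 2 or more in both fractions was seen at 9163 members (66.2%). At 69 members the ratio was under 1 in Emerald-high and at least 2 in Emerald-negative cells, and at 173 it was the reverse. A pooled ratio of 2 or more forces a ratio of 2 or more in at least 1 fraction. These counts therefore rest on the values that chose the members and are given as a description.

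The split of HpaII tags between the fractions varied more from member to member than counting allows. With 40 to 79 HpaII tags, the mean chi-square per site (1 where only counting error acts) was 1.64 at 5609 members, 1.67 at 2576 other eligible sites and 1.30 at 11430 highly cut dense sites. With 40 to 79 MspI tags it was 1.47, 1.48 and 1.46 in these sets (625, 16973 and 331 sites). HpaII spread at this depth was therefore little above MspI spread at isolated sites, highly cut or not, and below it at dense sites. Across 5068 members with at least 10 HpaII tags in each part, the Emerald-high share in part 1 and in part 2 had a Pearson correlation of 0.0783 and a Spearman correlation of 0.0650, a weak relation given as a description over sites that share libraries and scaling.

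A two-sided Fisher's exact test on the tags of each site, with Benjamini-Hochberg adjustment over 666686 sites and at least a 2-fold change, called 2 of 13849 members higher in Emerald-high cells (0.0144%) and 0 lower. Over all sites tested, 0.0222% were called higher and 0.0129% lower, so the members' counts are near the background. With counts divided by the overdispersion of 1.29 measured between the MspI libraries, with 10 tags required in each MspI library, or with scaling to dense sites, 0 members were called higher, so both calls depend on these settings. The share called over all sites was not computed at these settings. What is compared is 1 library with another, not conditions. By adjusted p alone 2 members were higher and 1 lower (0.0235% and 0.0214% of all sites tested), and at an unadjusted p under 0.05, 579 were higher and 414 lower (4.18% and 2.99%, against 5.14% and 1.71% of all sites tested).

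At both called members the MspI libraries differed as well as the HpaII libraries. On chromosome 10 at 30449882 there were 44 HpaII and 7 MspI tags in Emerald-high cells and 32 HpaII and 26 MspI tags in Emerald-negative cells. Fisher's exact test gave an adjusted p of 0.00874 with a log2 difference of 2.93 (SE 0.67), of which 1.18 came from HpaII and -1.75 from MspI. On chromosome 11 at 84396058 the counts were 65 and 9 (Emerald-high) beside 64 and 29 (Emerald-negative). There the same exact test gave an adjusted p of 0.0391 with a log2 difference of 2.35 (SE 0.58), with 0.76 from HpaII and -1.58 from MspI. There and on chromosome 10 the MspI libraries, whose cutting is blind to CpG methylation, differed more than the HpaII libraries. The member that passed by adjusted p alone was the most tagged site on chromosome 1, at -0.44 (SE 0.0579), a change under the 2-fold limit. Fisher's exact test gave it an adjusted p of 4.52e-10. Some of its tags may be shared with other positions, so this value need not belong to that site alone.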

How the data were processed

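The deposited files give estimated counts of tags per CCGG position in 2 parts and their sum, not scaled to depth. The submitters' processing notes name genome build mm9. For the aligner, tags with several matches and the meaning of the parts, nothing is stated in those notes or the labels. No mm9 genome or annotation was used, so sites carry positions as in the files, without genes or sequences. Tags were scaled to first-line totals. Group values are log2 ratios of summed scaled tags with 95% Poisson intervals; shares have exact Clopper-Pearson intervals. Tags carry no molecular identifiers, so intervals cover counting error only. Fisher's exact test used whole-rounded counts and a null odds ratio of 0.5897 from the totals, at sites with 10 or more pooled MspI tags; the code was tested on simulated data and against R. Named sites were the 8 highest ratios (at least 20 MspI tags in each library, whole tags), the called members, the sites beside the limit, the 3 runs with most members and the 3 most tagged members. Members and lists were chosen with earlier results of these data known. Analyses ran in Python 3.11.15 with scipy 1.17.1, numpy 2.4.6, numba 0.67.0 and pandas 2.3.3.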

Additional observations from a re-analysis of the deposited data

How the results depend on the processing

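No paired analysis was possible because each combination of fraction and enzyme had 1 library, and leaving out a library was not possible either. The neighbours at 500 to 1000 bp could not be read with isolation over 1000 bp, since none exist by construction. The number of members, 13849, was 5278 with 20 pooled MspI tags, 3671 with 10 in each MspI library, 6645 with a ratio of 3, 21842 with 1.5, 145 scaled to dense sites, 7438 isolated over 1000 bp, 9039 with no dense site within 50000 bp, 4892 chosen on Emerald-negative and 6118 on Emerald-high libraries alone. The fraction difference at members, 0.0224, turned to -0.0685 with a ratio of 3 and -0.0614 when chosen on Emerald-negative libraries; the cause was not tested. It was 0.0377 (20 MspI tags), 0.0921 (ratio of 1.5), 0.318 (scaled to dense sites, members chosen anew), 0.74 (the same members, dense scaling), 0.000209 (totals without the 0.1% most tagged sites), 0.0383 (1000 bp), 0.0469 (50000 bp), 0.0654 and 0.0710 (chosen on part 1 or part 2), 0.19 (chosen on Emerald-high libraries) and 0.0521 (median over sites). At other eligible sites, 0.725 became 0.744 (20 tags), 0.648 (ratio of 3), 0.79 (1.5), 1.25 (dense scaling, chosen anew), 1.45 (same sites, dense scaling), 0.702 (trimmed totals), 0.751 (whole tags), 0.715 (1000 bp), 0.654 and 0.702 (parts) and 0.634 (median). At highly cut dense sites, -0.627 became -0.562 (20 tags), -0.511 (10 in each), -0.639 (ratio of 3), -0.105 (scaled to dense sites, chosen anew), -0.638 (trimmed totals), -0.68 and -0.668 (parts), and turned to 0.0934 for the same sites with dense scaling, where the construction sets dense sites as the reference. Members called higher, 2, were 3 with 20 tags, 0 with 10 tags in each MspI library and 0 scaled to dense sites. They were 1 with trimmed totals, 1 with whole tags and 0 with counts divided by the overdispersion of 1.29. Members called lower, 0, were 2 with 20 tags, 1 with 10 in each and 1 by adjusted p alone. Apart from adjusted p alone, the share called over all sites tested was not computed at these settings. Those counts therefore cannot be set against a background. The neighbours' ratio, 1.78, was 2.04 (20 tags), 2.09 (10 in each), 2.03 (ratio of 3), 1.60 (1.5), 0.437 (dense scaling), 1.71 (trimmed totals), 1.68 (50000 bp), 2.07 and 1.92 (chosen on Emerald-negative or Emerald-high libraries), 1.91 (members kept) and 1.40 (isolated neighbours, members kept). Recurrence, 49.6% over both parts, was 55.5% with 10 MspI tags per part. The settings with members kept, isolated neighbours, the same sites under dense scaling, without the most tagged member, and both changes to recurrence were chosen after seeing the data. At a median of 8 and 9 MspI tags per library, single sites bear no firm statement.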

Other observations

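Outside the autosomes, the same rule was met by 366 of 6253 eligible sites of chromosome X, 5.85% (5.28 to 6.46), and by 20 of 128 of chromosome Y, 15.6% (9.81 to 23.1). After the 3 named runs came runs of 13 members each on chromosome 13 (40967306 to 41073881, 22 eligible sites), chromosome 2 (166204016 to 166510228, 57 eligible sites) and chromosome 6 (100282733 to 100401935, 29 eligible sites). The summed ratio of their other sites was 2.29, 0.558 and 1.13. In the first of these, 9 of 13 members had whole tags.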
